A study of Mus musculus with 8 samples.

Results

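DNA replication and mitosis genes were followed in mouse liver RNA-seq, in a set of 45 genes out of 23006 in the count table. The set was chosen by name, as the rows whose Ensembl identifiers carry the listed symbols in the GENCODE mouse annotation on GRCm38, and all 45 were found. It divides into 26 genes of the G1/S transition and of DNA replication and 19 genes of G2 and mitosis (G2/M). The livers came from wild-type (WT) mice in 4 groups with 2 libraries each. SLIT2+APAP mice were given SLIT2 at 2 μg per mouse by the intraperitoneal route for 3 days and acetaminophen (APAP) at 400 mg/kg. APAP mice were given PBS and APAP at 400 mg/kg. SLIT2 mice had the same SLIT2 course and no APAP, and control mice had PBS alone. Livers were taken 24 h after APAP, and the labels do not give the order or spacing of the SLIT2 and APAP doses. APAP libraries are called 3 and 4, after their labels, and libraries elsewhere 1 and 2. No label ties a library to a mouse of its own, so the p-values rest on differences between libraries that may be technical alone.

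APAP is a painkiller that kills hepatocytes around the central vein when overdosed, and the surviving hepatocytes then leave quiescence to replace them. A cell that enters the cycle first makes D- and E-type cyclins, which free the E2F factors from the retinoblastoma protein. E2F factors switch on the genes for the replication machinery, among them the MCM helicase, its loaders Cdc6 and Cdt1, and the sliding clamp Pcna. Genes of mitosis, such as cyclin B, Cdk1 and the Aurora kinases, are switched on later, when DNA has been copied. SLIT2 is a secreted ligand of the ROBO receptors, best known from axon guidance. The comparisons asked how the early and the late genes stood 24 h after APAP, with and without SLIT2.

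Libraries held between 60.8 and 100.5 M counts, and 16876 genes passed the filter on low counts. Levels are counts per 1000000 (CPM) on library sizes scaled by TMM (trimmed mean of M values), which sets most genes equal between libraries. The mitochondrially encoded genes took 25.1% and 30.3% of the counts in SLIT2+APAP libraries, 14.9% and 13.4% in APAP libraries, 60.2% and 69% in SLIT2 libraries, and 16% and 17.3% in control libraries. The 2 APAP libraries lay farther apart than those of any other group, with a median absolute log2 difference of 0.601 over genes, against 0.36 between the SLIT2 libraries, 0.219 between the SLIT2+APAP libraries and 0.215 between the control libraries. Of 6 hepatocyte markers 6 had counts, with summed levels of 60190 and 59870 CPM in SLIT2+APAP, 92060 and 72180 CPM in APAP, 12610 and 6935 CPM in SLIT2 and 44300 and 63970 CPM in control. Skeletal muscle markers summed to at most 1.11 CPM in the 6 SLIT2+APAP, APAP and SLIT2 libraries and to 627.2 and 68.6 CPM in control libraries. In such bulk tissue, fewer cells of a type and less RNA per cell cannot be told apart.

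The windows at the start sites are shown first, for the motifs of cell cycle control that they hold. Windows of 250 bases before to 50 bases after the start were taken from RefSeq on GRCm38.p6. A window was found for 34 of the 45 members, 20 G1/S and 14 G2/M. Mcm4, Ccnd1, Ccne2, Gins1, Gins2, Pole, Ccna2, Aurkb, Kif20a, Tpx2 and Foxm1 had none. The windows below belong to the members called in APAP against control or SLIT2+APAP against APAP, plus Cdk1, chosen after its values were seen as a G2/M gene that holds all 3 motifs. Each is written 5′ to 3′ on the strand of the gene, and capitals mark matches to the motifs described after them. Mcm3 lies at chr1:20820263-20820562 on the minus strand, Mcm5 at chr8:75109259-75109558 on the plus strand, Cdt1 at chr8:122567765-122568064 on the plus strand and Cdc45 at chr16:18811923-18812222 on the minus strand. Pcna lies at chr2:132253131-132253430 on the minus strand, Ccne1 at chr7:38107441-38107740 on the minus strand, Birc5 at chr11:117848987-117849286 on the plus strand and Cdk1 at chr10:69352863-69353162 on the minus strand.
Mcm3: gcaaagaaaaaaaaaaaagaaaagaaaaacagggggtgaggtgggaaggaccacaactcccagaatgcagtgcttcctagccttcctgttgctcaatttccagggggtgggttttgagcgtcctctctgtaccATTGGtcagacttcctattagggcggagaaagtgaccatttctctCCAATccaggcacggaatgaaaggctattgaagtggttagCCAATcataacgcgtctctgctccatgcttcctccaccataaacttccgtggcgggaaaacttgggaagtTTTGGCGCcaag
Mcm5: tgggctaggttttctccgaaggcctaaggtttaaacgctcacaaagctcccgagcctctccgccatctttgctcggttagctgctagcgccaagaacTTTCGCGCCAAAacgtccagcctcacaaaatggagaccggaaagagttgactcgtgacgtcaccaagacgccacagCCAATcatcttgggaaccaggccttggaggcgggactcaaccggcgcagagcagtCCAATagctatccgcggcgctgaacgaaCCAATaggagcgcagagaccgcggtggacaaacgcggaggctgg
Cdt1: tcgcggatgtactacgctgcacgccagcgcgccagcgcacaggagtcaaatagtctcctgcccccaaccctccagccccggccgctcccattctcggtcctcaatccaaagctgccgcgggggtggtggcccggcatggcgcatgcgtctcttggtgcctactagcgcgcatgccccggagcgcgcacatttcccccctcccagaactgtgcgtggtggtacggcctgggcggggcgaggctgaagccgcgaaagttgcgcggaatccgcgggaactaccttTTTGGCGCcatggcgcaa
Cdc45: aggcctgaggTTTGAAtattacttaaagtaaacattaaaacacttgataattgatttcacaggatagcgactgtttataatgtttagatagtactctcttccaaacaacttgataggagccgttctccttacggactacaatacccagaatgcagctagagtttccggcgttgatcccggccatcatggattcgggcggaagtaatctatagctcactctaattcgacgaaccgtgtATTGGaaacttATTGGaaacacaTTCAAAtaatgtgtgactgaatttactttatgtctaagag
Pcna: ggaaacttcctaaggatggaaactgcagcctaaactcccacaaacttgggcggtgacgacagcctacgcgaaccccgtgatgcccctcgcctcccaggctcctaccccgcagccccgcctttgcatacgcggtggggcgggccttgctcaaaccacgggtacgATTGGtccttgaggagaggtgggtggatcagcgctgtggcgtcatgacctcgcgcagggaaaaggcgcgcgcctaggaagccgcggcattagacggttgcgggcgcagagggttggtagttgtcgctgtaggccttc
Ccne1: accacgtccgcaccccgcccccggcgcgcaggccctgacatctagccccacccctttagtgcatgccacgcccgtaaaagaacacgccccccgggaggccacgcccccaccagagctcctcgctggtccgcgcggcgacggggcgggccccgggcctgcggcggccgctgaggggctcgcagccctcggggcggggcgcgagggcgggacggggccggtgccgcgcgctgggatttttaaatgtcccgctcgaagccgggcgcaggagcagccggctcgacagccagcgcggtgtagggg
Birc5: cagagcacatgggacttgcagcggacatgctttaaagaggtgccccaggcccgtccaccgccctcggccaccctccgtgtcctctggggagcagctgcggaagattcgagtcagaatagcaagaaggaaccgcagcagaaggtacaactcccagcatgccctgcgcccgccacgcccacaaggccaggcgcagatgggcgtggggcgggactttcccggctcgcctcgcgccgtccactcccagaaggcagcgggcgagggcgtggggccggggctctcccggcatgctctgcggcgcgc
Cdk1: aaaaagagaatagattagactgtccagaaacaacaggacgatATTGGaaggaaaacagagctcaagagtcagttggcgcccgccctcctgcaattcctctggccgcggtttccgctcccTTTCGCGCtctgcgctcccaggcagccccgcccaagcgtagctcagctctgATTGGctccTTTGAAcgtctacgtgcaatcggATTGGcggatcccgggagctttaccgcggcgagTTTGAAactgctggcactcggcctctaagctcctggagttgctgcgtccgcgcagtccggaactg

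In all, 3 motifs known from cell cycle genes of human and mouse cells were searched on both strands. The E2F motif, written TTTNGCGC, is bound by E2F factors. It was found in the windows of 8 of 20 G1/S members (40%) and 1 of 14 G2/M members (7.14%), against 1.57% of all 27025 genes with a window. The G1/S members with it were Mcm3, Mcm5, Mcm6, Mcm7, Cdt1, E2f2, Uhrf1 and Lig1, and Cdk1 was the G2/M member. The cell cycle genes homology region (CHR), written TTTGAA, stood in 4 of 20 G1/S windows (20%) and 11 of 14 G2/M windows (78.6%), against 20.2% of all genes. The CCAAT box stood in 12 of 20 G1/S windows (60%) and 13 of 14 G2/M windows (92.9%), against 41.1% of all genes. The Ccne1 and Birc5 windows held none of the 3 motifs, and the Pcna window held a CCAAT box alone. In Mcm3 the E2F match began at base 39 counted from the start and in Cdt1 at base 33. In Mcm5 a pair of overlapping matches on opposite strands began 153 and 149 bases before the start, and in Cdk1 the match began 131 bases before it. Of the 92 matches in member windows, 2 overlapped a match of another motif. A match is a run of letters, and no factor binding was measured here.

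Per length of transcript, the members spanned a wide range of levels. In control livers Pcna was the highest at 7.02 CPM per kb, followed by Gins1 at 2.29, Tyms at 2.27, Mcm7 at 2.13 and Ccnf at 2.101 CPM per kb. The proliferation marker Mki67 stood at 0.0387 CPM per kb in control livers, and the Aurora kinase gene Aurkb at 0.0188. Many of the mitosis genes had few counts. In 11 members, all of them G2/M, the highest count in any of the 8 libraries was under 100. Tpx2, a spindle assembly factor, had 3 counts in SLIT2 library 2, 11 counts in APAP library 4 and 0 in the other 6 libraries, and it was the only member that did not pass the filter on low counts.

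The summed level of the 26 G1/S genes was 88.5 and 93.9 CPM in SLIT2+APAP libraries, 148.4 and 206.7 CPM in APAP libraries, 120.6 and 118.4 CPM in SLIT2 libraries and 88.9 and 90.4 CPM in control libraries. Both APAP libraries lay above the other 6. Of these sums, Ccnd1 alone gave 75.7 CPM in APAP library 4 and 10.3 CPM in APAP library 3. For the 19 G2/M genes the sums were 34.5 and 36.2 CPM in SLIT2+APAP, 27.9 and 36.4 CPM in APAP, 69.0 and 69.6 CPM in SLIT2 and 36.7 and 31.6 CPM in control. Here both SLIT2 libraries lay above the other 6, and the APAP libraries overlapped control. Scaled to the counts outside the mitochondrially encoded genes, the G1/S sums became 128.0 and 157.2 in SLIT2+APAP, 163.6 and 248.0 in APAP, 325.3 and 346.8 in SLIT2 and 93.0 and 103.4 in control, per 1000000 counts. On that scale the SLIT2 libraries were the highest and the SLIT2+APAP libraries lay above control, so the order of the groups depends on how a library is scaled. The G2/M sums on that scale were 49.97 and 60.7 in SLIT2+APAP, 30.7 and 43.7 in APAP, 186.1 and 203.8 in SLIT2 and 38.5 and 36.2 in control, which put the SLIT2+APAP libraries above both APAP and control.

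**Figure D1:**
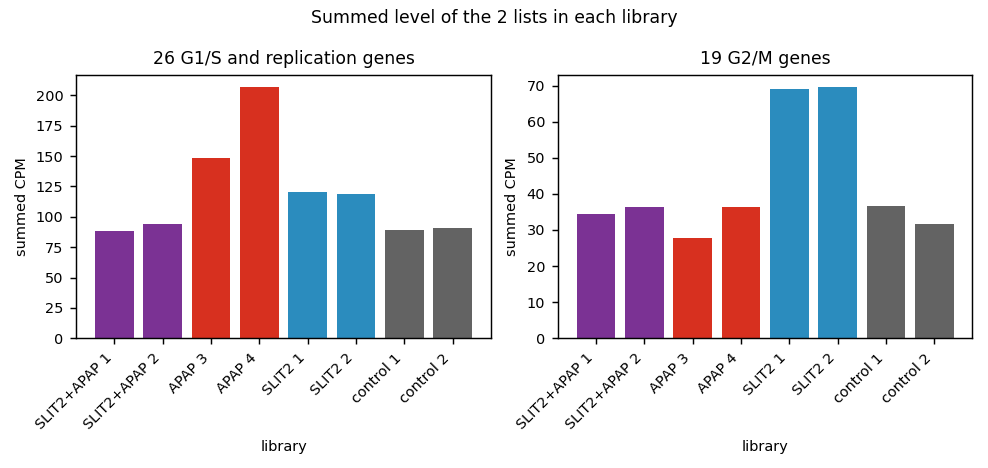
Summed level in CPM (vertical axis) of the 26 G1/S and replication genes (left) and the 19 G2/M genes (right), 1 bar per library. The G1/S sum is 148.4 and 206.7 CPM in the APAP libraries and 88.5 to 93.9 CPM in the SLIT2+APAP and control libraries. Ccnd1 alone gives 75.7 CPM of the sum in APAP library 4. The G2/M sum is highest in the SLIT2 libraries at 69.0 and 69.6 CPM.

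With APAP alone, most replication genes lay above control without overlap, but few passed a test. A gene was called where edgeR's quasi-likelihood test, fitted to all 8 libraries, gave a Benjamini-Hochberg adjusted p under 0.05 over the 16876 genes. In APAP against control 1 of the 44 members tested was called, beside 0.788% of all genes tested. That gene was Ccne1, cyclin E1, which activates Cdk2 at the G1/S transition. The other 25 G1/S genes and all 18 G2/M genes tested did not pass. DESeq2, a second count test, called 10 members in this comparison, beside 10.7% of all genes.

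Ccne1 had 4.03 and 2.75 CPM in APAP libraries, against 0.465 and 0.662 CPM in control libraries. The groups did not overlap, and the log2 fold change was 2.58 ± 0.38 (SE, n = 2 libraries each; adjusted p = 0.0391 by edgeR's quasi-likelihood test with Benjamini-Hochberg adjustment), a 5.97-fold difference. This call rests on the spread estimated over all 8 libraries. Without SLIT2+APAP library 1 or without library 2 the adjusted p of Ccne1 was 0.118, without SLIT2 library 1 or 2 it was 0.0884 or 0.0854, and without control library 1 or 2 it was 0.303 or 0.0934. Without APAP library 3 or 4 it was 0.0233 or 0.000892. The log2 fold change stayed between 2.28 and 2.86 in all these fits. More members were called without APAP library 3 or 4, and no member was called without any 1 of the other 6 libraries. The number of all genes with an unadjusted p under 0.05 by edgeR also moved with the library left out. It did not always move the same way as the number of members called. The changes are not read as a result about the members, and whether they are particular to them was not tested.

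Most of the G1/S genes lay on the same side of control. Of the 26, 21 had a positive log2 fold change in APAP against control, beside 52.5% of all genes tested, and 15 had an unadjusted p under 0.05, beside 24.6% of all genes tested. The median log2 fold change of the 26 was 1.23, against 0.05 over all genes, and without APAP library 4 it was 0.60. Both APAP libraries lay above both control libraries for 19 of the 26, beside 26.9% of all genes tested, and below them for Gins1 and Tyms. Of the 18 G2/M genes tested, 9 were positive and 9 negative, with a median of 0.00, and 2 had an unadjusted p under 0.05. In these, 4 of the 19 members lay above control without overlap (Mki67, Aurkb, Bub1b and Cdc20) and 3 below (Ccnb2, Birc5 and Bub1), beside 26.1% of all genes below. The median of the G2/M genes was 0.13 with libraries scaled by their totals alone, which moved the median of all genes to 0.16.

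The 6 subunits of the MCM2-7 helicase, which opens the double helix at the replication fork, all had positive log2 fold changes in APAP against control, from 0.21 for Mcm7 to 2.34 for Mcm5. None of the 6 was called, and the sign was the same for all 6 under each scaling tried. Mcm3 had 3.93 and 4.67 CPM in APAP libraries, against 1.20 and 1.05 CPM in control libraries, and its adjusted p of 0.053 by edgeR's test was just over the threshold. Mcm5 had 1.85 and 4.17 CPM in APAP, against 0.632 and 0.557 CPM in control (adjusted p = 0.0652 by edgeR). Mcm2 stood at 2.25 and 4.61 CPM in APAP and at 1.45 and 1.31 CPM in control. Neither gene overlapped between the groups, but APAP library 4 was more than 2-fold above APAP library 3 for both. Mcm4 had 4.07 and 5.29 CPM in APAP, against 1.72 and 1.52 CPM in control, and Mcm6 had 2.73 and 7.17 CPM in APAP, against 1.20 and 1.22 CPM in control.

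Among the proteins that load and switch on the helicase, Cdt1 and Cdc45 stood highest over control. Cdt1, which brings MCM2-7 to origins together with Cdc6, had 13.3 and 4.02 CPM in APAP libraries, against 1.84 and 1.60 CPM in control libraries (log2 fold change 2.33 ± 0.52, SE; adjusted p = 0.0686 by edgeR). Cdc45, a partner of MCM2-7 in the active helicase, had 2.095 and 1.33 CPM in APAP, against 0.370 and 0.347 CPM in control (2.25 ± 0.47, SE; adjusted p = 0.0652 by edgeR). Gins2, a subunit of the GINS complex that completes that helicase, had 8.96 and 13.4 CPM in APAP, against 5.63 and 7.97 CPM in control. Its partner Gins1 had 2.92 and 2.85 CPM in APAP, against 3.28 and 3.68 CPM in control. The 2 GINS genes thus lay on opposite sides of control. Cdc45 overlaps Ufd1 on the opposite strand, and since the strand setting of the counting is not given in the sources used here, reads of the 2 genes cannot be told apart.

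Of the G1 cyclins, Ccnd1 (cyclin D1, the cyclin of early G1) had 10.3 CPM in APAP library 3 and 75.7 CPM in APAP library 4, against 8.56 and 8.99 CPM in control libraries. The high value is that of 1 library, and the gene was not called (adjusted p = 0.122 by edgeR). Ccne2, cyclin E2, had 2.22 and 1.78 CPM in APAP, against 1.84 and 2.06 CPM in control, with overlap. E2f1, an activator of replication genes, had a log2 fold change of 0.81 ± 0.49 (SE) in APAP against control and E2f2, of the same kind, one of -0.16 ± 0.66. Neither E2F gene was called in any comparison.

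At the fork, Pcna, the clamp that holds DNA polymerases on their template, had 38.4 and 22.4 CPM in APAP libraries, against 16.2 and 17.5 CPM in control libraries (0.85 ± 0.29, SE; adjusted p = 0.131 by edgeR). Fen1, which trims Okazaki fragments, had 2.26 and 5.22 CPM in APAP, against 1.81 and 1.59 CPM in control. Pole, the catalytic subunit of the leading strand polymerase, had 2.76 and 1.97 CPM in APAP, against 0.632 and 1.20 CPM in control. All 3 genes had both APAP libraries above both control libraries. Of the nucleotide genes, Rrm1, the large subunit of ribonucleotide reductase, had 3.83 and 7.42 CPM in APAP, against 6.21 and 5.42 CPM in control, and Tyms, thymidylate synthase, had 10.7 and 12.5 CPM in APAP, against 13.9 and 13.7 CPM in control. Neither was above control in both libraries. Chek1, the kinase of the replication checkpoint, had 2.22 and 1.40 CPM in APAP, against 0.560 and 0.463 CPM in control (1.82 ± 0.56, SE; adjusted p = 0.109 by edgeR). Uhrf1, which passes DNA methylation to the new strand, had 0.649 and 2.68 CPM in APAP, against 0.513 and 0.452 CPM in control.

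The mitosis genes most used as markers of dividing cells were not called in APAP against control. Cdk1, the kinase that starts mitosis, had 0.798 and 1.24 CPM in APAP libraries, against 0.942 and 0.768 CPM in control libraries, with overlap (0.27 ± 0.37, SE). Mki67 had 0.611 and 0.534 CPM in APAP, against 0.358 and 0.421 CPM in control (0.55 ± 0.39, SE), without overlap and not called. Top2a, the topoisomerase that untangles chromosomes, had 6.45 and 3.39 CPM in APAP, against 3.05 and 3.92 CPM in control. Cdc20, an activator of the anaphase-promoting complex, had 0.200 and 0.447 CPM in APAP, against 0.0834 and 0.168 CPM in control. Of these 4 genes, Mki67 and Cdc20 lay above control in both APAP libraries, at levels of less than 1 CPM.

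**Figure D2:**
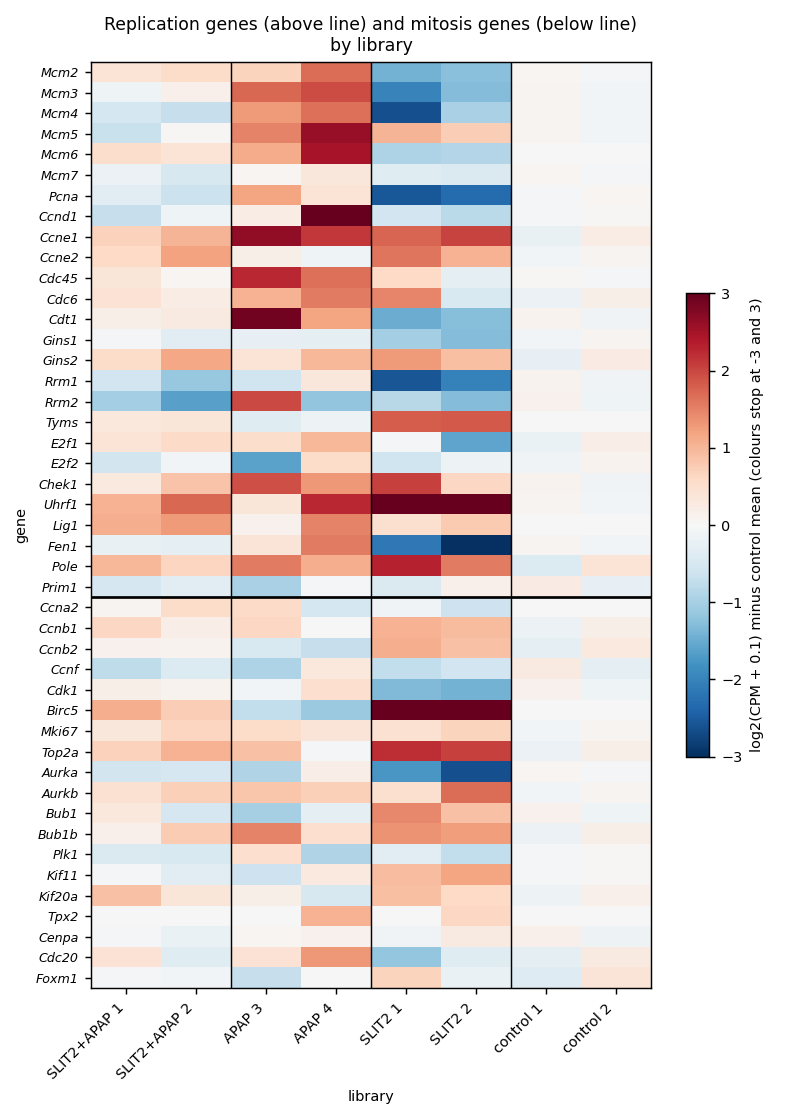
Each row is 1 of the 45 genes and each column 1 library, and the colour gives log2(CPM + 0.1) minus the mean of the 2 control libraries, with the 26 G1/S genes above the line and the 19 G2/M genes below it. The median difference from the control mean was computed on edgeR's log2 CPM and not on the values coloured. Over the G1/S genes tested it is 0.62 and 1.32 in APAP libraries 3 and 4 and 0.25 and 0.21 in the SLIT2+APAP libraries. The SLIT2 libraries show their own mix of higher and lower genes.

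The 2 APAP libraries did not show the same replication genes at the same height. Over the 26 G1/S genes, 10 differed by more than 2-fold between APAP libraries 3 and 4, against 6 between the SLIT2 libraries and 0 between the SLIT2+APAP libraries and between the control libraries. The widest gap was in Rrm2, the small subunit of ribonucleotide reductase, with 13.3 CPM in APAP library 3 and 1.41 CPM in APAP library 4. Ccnd1 differed 7.36-fold and E2f2 5.54-fold, both higher in APAP library 4, and Cdt1 differed 3.31-fold, higher in APAP library 3. The median log2 difference of the G1/S genes from the control mean was 0.62 in APAP library 3 and 1.32 in APAP library 4. Neutrophil markers summed to 16.4 and 5.31 CPM in APAP libraries 3 and 4, against 1.48 and 1.85 CPM in control libraries. Cholangiocyte markers summed to 66.4 and 56.9 CPM in APAP libraries, against 33.8 and 34.8 CPM in control libraries. The part of these cell types in the replication genes was not tested.

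Livers given SLIT2 and APAP had lower levels of 7 replication genes than livers given APAP alone. In SLIT2+APAP against APAP 8 of the 44 members tested were called, which is 18.2% of them beside 13.9% of all genes tested. Lower were 7 G1/S genes, Mcm3, Mcm4, Mcm5, Cdc45, Cdt1, Pcna and Ccne1, beside 7.64% of all genes tested called lower. Higher was 1 G2/M gene, Birc5, beside 6.29% called higher. Of the 26 G1/S genes 7 were called, all lower, and of the 18 G2/M genes tested 1. This comparison shares the APAP libraries with APAP against control, so the 2 sets of values are not independent.

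Over the 26 G1/S genes the median log2 fold change in SLIT2+APAP against APAP was -0.96, against -0.06 over all genes and -0.62 without APAP library 4, and 20 were negative and 6 positive, beside 47.4% of all genes positive. In this comparison 14 members had an unadjusted p under 0.05, beside 33.1% of all genes. Both SLIT2+APAP libraries lay below both APAP libraries for 15 of the 26, beside 29.4% of all genes tested. They lay above for Ccne2 and Tyms, beside 28.8% of all genes. Over the 18 G2/M genes tested the median was -0.03, with 9 negative, and 2 lay below without overlap (Aurkb and Cenpa) and 3 above (Ccnb2, Birc5 and Kif20a). With libraries scaled by their totals alone the G2/M median was 0.15 and the G1/S median -0.78, while the median of all genes was 0.12.

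Mcm3 had 1.01 and 1.26 CPM in SLIT2+APAP libraries, against 3.93 and 4.67 CPM in APAP libraries, and fell by 1.92 ± 0.35 on the log2 scale (SE, n = 2 libraries each; adjusted p = 0.0157 by edgeR with Benjamini-Hochberg adjustment). Mcm4 had 1.09 and 0.962 CPM in SLIT2+APAP, against 4.07 and 5.29 CPM in APAP, and fell by 2.19 ± 0.51 (adjusted p = 0.0307 by edgeR). Mcm5 had 0.338 and 0.614 CPM in SLIT2+APAP, against 1.85 and 4.17 CPM in APAP, and fell by 2.65 ± 0.50 (adjusted p = 0.0168 by edgeR). In all 3 the highest SLIT2+APAP library was less than the lowest APAP library. The other 3 helicase subunits, Mcm2, Mcm6 and Mcm7, had log2 fold changes of -0.80, -1.53 and -0.52, also without overlap, and were not called. All 6 subunits kept a negative sign under each scaling tried.

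Cdc45 had 0.488 and 0.379 CPM in SLIT2+APAP libraries, against 2.095 and 1.33 CPM in APAP libraries, and fell by 1.98 ± 0.46 (SE; adjusted p = 0.0301 by edgeR). Cdt1 had 1.94 and 2.08 CPM in SLIT2+APAP, against 13.3 and 4.02 CPM in APAP, and fell by 2.1 ± 0.51 (adjusted p = 0.0347 by edgeR). The log2 fold change of Cdt1 was -1.01 without APAP library 3 and -2.71 without APAP library 4. The other helicase partners did not pass, and Gins1 and Gins2 had log2 fold changes of 0.10 and 0.16. Pcna had 13.5 and 10.7 CPM in SLIT2+APAP, against 38.4 and 22.4 CPM in APAP, and fell by 1.33 ± 0.29 (adjusted p = 0.0251 by edgeR). Ccne1 had 0.964 and 1.23 CPM in SLIT2+APAP, against 4.03 and 2.75 CPM in APAP, and fell by 1.62 ± 0.36 (adjusted p = 0.0255 by edgeR). These 4 genes were also without overlap between the groups.

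Ccnd1 and Rrm2 had large differences and did not pass, and their APAP libraries were far apart. Ccnd1 had 5.39 and 8.05 CPM in SLIT2+APAP libraries, against 10.3 and 75.7 CPM in APAP libraries (log2 fold change -2.68 ± 0.76, SE; adjusted p = 0.0528 by edgeR). Rrm2 had 1.59 and 1.00 CPM in SLIT2+APAP, against 13.3 and 1.41 CPM in APAP (-2.51 ± 0.86, SE; adjusted p = 0.0883 by edgeR), and its groups overlapped. Ccne2 and Tyms had values of the other sign. Ccne2 had 2.99 and 4.60 CPM in SLIT2+APAP, against 2.22 and 1.78 CPM in APAP (0.93 ± 0.34, SE; adjusted p = 0.101 by edgeR). Tyms had 17.3 and 17.7 CPM in SLIT2+APAP, against 10.7 and 12.5 CPM in APAP (0.60 ± 0.19, SE; adjusted p = 0.0692 by edgeR). So the cyclins E1 and E2, which share a role, had log2 fold changes of opposite sign.

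Birc5 (survivin), a subunit of the chromosomal passenger complex and an inhibitor of apoptosis, was the G2/M gene called. It had 7.70 and 6.05 CPM in SLIT2+APAP libraries, against 2.095 and 1.58 CPM in APAP libraries, a rise of 1.90 ± 0.24 on the log2 scale (SE; adjusted p = 0.00641 by edgeR). Its partner in that complex, the kinase gene Aurkb, had 0.113 and 0.154 CPM in SLIT2+APAP, against 0.175 and 0.155 CPM in APAP. Cdk1 had 0.976 and 0.921 CPM in SLIT2+APAP, against 0.798 and 1.24 CPM in APAP (-0.11 ± 0.37, SE). Mki67 had 0.513 and 0.665 CPM in SLIT2+APAP, against 0.611 and 0.534 CPM in APAP (0.05 ± 0.38, SE), and Top2a 5.64 and 7.20 CPM in SLIT2+APAP, against 6.45 and 3.39 CPM in APAP (0.39 ± 0.33, SE). The last 3 overlapped between the groups. Kif20a, a kinesin of cytokinesis, had 2.89 and 2.02 CPM in SLIT2+APAP, against 1.76 and 1.08 CPM in APAP (0.79 ± 0.37, SE; adjusted p = 0.175 by edgeR).

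All 8 calls kept their direction in the 19 alternative fits, but not their place past the threshold. All 8 calls were lost in edgeR without SLIT2+APAP library 1 or without library 2. Without control library 1 or 2 all were lost but those of Mcm3, Mcm5 and Birc5. More members were called without APAP library 3 or 4. More of all genes had an unadjusted p under 0.05 by edgeR there as well, and whether the rise was particular to the members was not tested. With only the 4 libraries compared in the fit 0 members passed, and 1 gene passed of all tested. In that fit 11 members had an unadjusted p under 0.05 by edgeR, beside 3915 of all genes tested. Without the SLIT2 libraries 7 of the 8 stayed called and Cdt1 did not. DESeq2 called 12 members, all 8 among them, beside 20.8% of all genes.

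**Figure D3:**
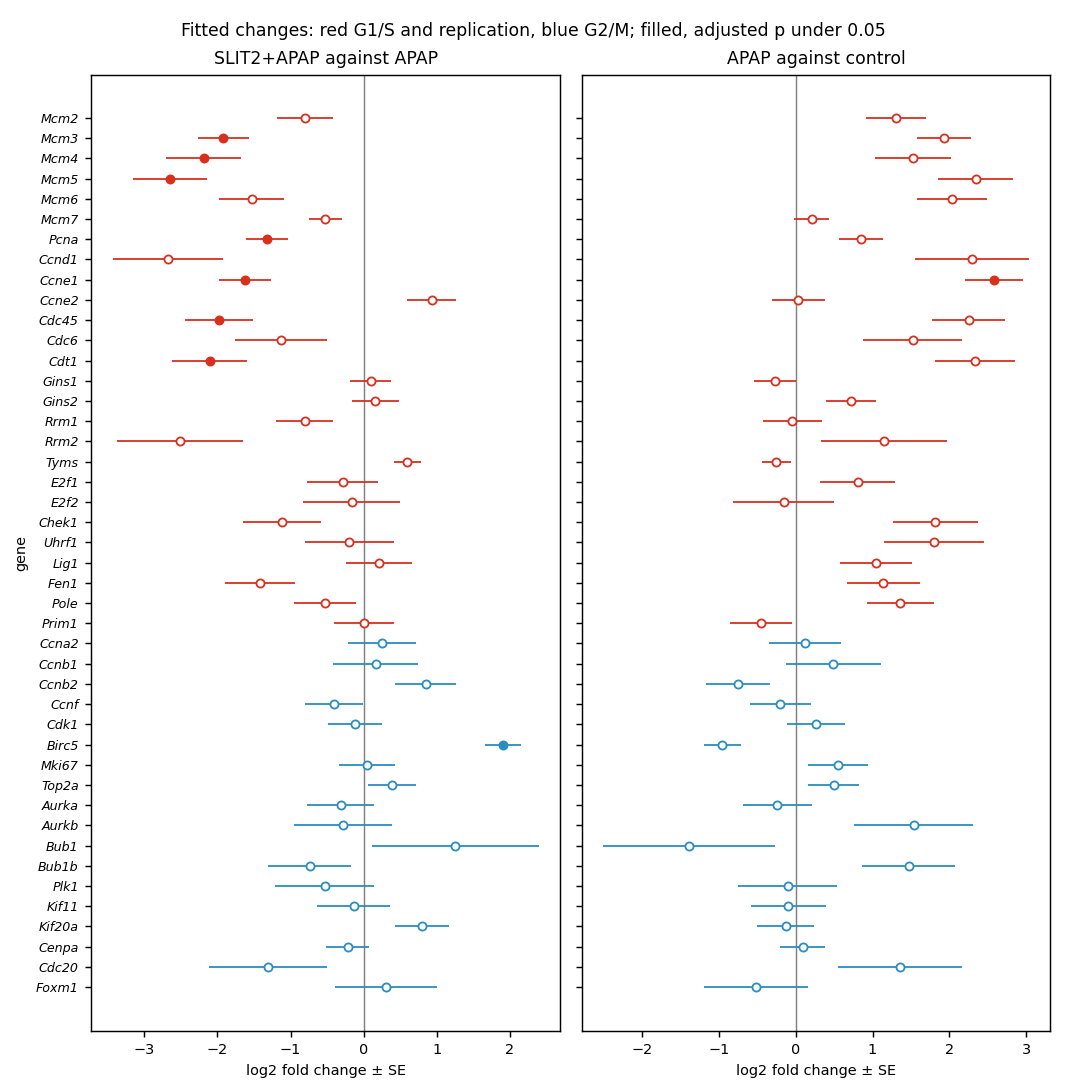
Fitted log2 fold change ± SE (horizontal axis) of the 44 genes tested in SLIT2+APAP against APAP (left) and APAP against control (right), with G1/S genes in red, G2/M genes in blue and genes at adjusted p under 0.05 filled. The 7 filled red points on the left lie between -2.65 and -1.33 and Birc5 at 1.90, and Ccne1 at 2.58 is the 1 filled point on the right. The 2 panels share the APAP libraries.

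**Figure D4:**
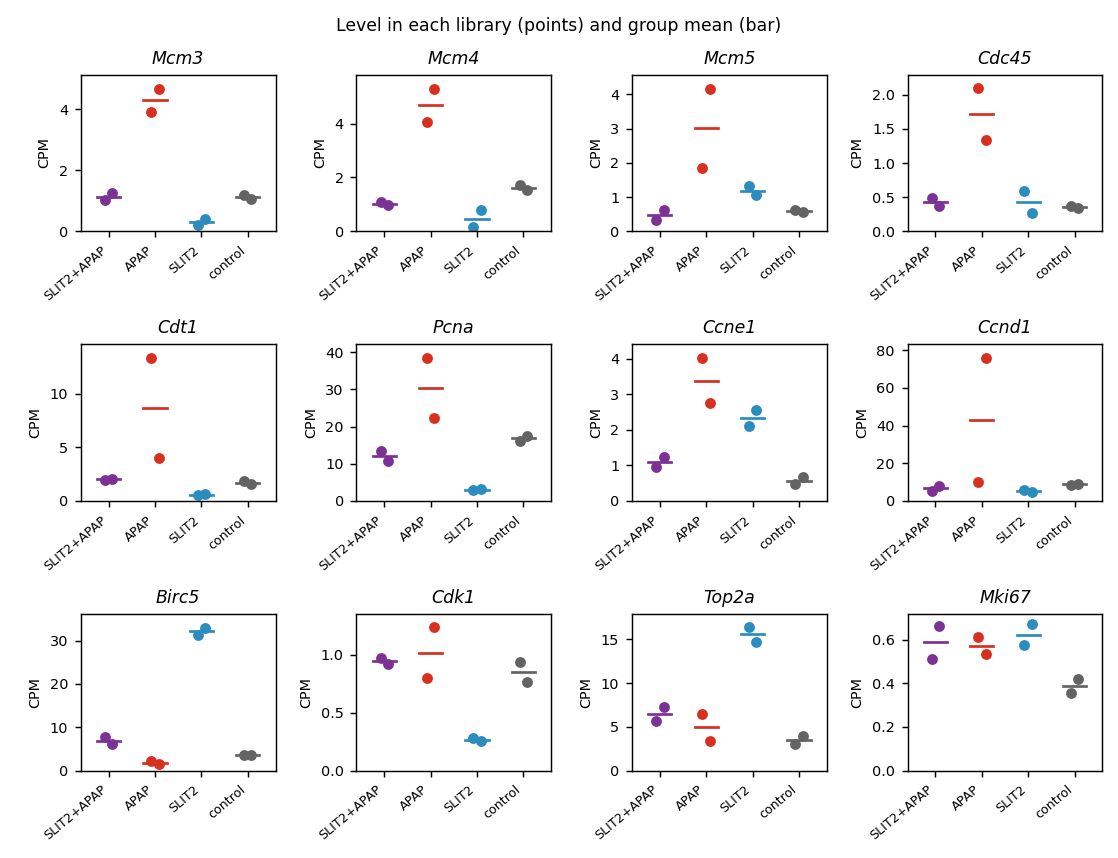
Level in CPM (vertical axis, linear from 0) of 12 genes in each library (points) and the mean of each group (bars). In Mcm3, Mcm4, Mcm5, Cdc45, Cdt1, Pcna and Ccne1 both APAP libraries lie above both SLIT2+APAP and both control libraries, whereas Birc5 and Top2a are highest in the SLIT2 libraries.

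Set against control, no member of the replication and mitosis set passed edgeR's test in livers given SLIT2 and APAP. In SLIT2+APAP against control edgeR called 0 of 44 members, beside 2.16% of all genes tested. At an unadjusted p under 0.05 there were 7 members, beside 20.4% of all genes, and DESeq2 called 1, Birc5, beside 9.03% of all genes. The median log2 fold change was 0.25 over the G1/S genes and 0.12 over the G2/M genes tested, against 0.04 over all genes. Birc5 had 7.70 and 6.05 CPM in SLIT2+APAP libraries, against 3.56 and 3.56 CPM in control libraries (0.95 ± 0.24, SE; adjusted p = 0.0758 by edgeR). Ccne1 had 0.964 and 1.23 CPM in SLIT2+APAP, against 0.465 and 0.662 CPM in control (0.96 ± 0.38, SE; adjusted p = 0.205 by edgeR). Pcna had 13.5 and 10.7 CPM in SLIT2+APAP, against 16.2 and 17.5 CPM in control (-0.48 ± 0.29, SE; adjusted p = 0.397 by edgeR).

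These values do not show that the 2 groups were alike. Both SLIT2+APAP libraries lay above both control libraries for 14 of the 26 G1/S genes, beside 35.2% of all genes tested, and below for 8, beside 32.3%. Of the 19 G2/M genes, 7 lay above and 4 below. The SE of a single G1/S gene in this comparison was 0.36 for Mcm3 and 0.84 for Rrm2 on the log2 scale. With only the 4 libraries compared in the fit, 8 members were called, 5 higher and 3 lower. In that fit 6442 of all genes had an unadjusted p under 0.05 by edgeR, against 3445 in the main fit. Of the members 17 did, against 7 in the main fit. Both numbers rose, and whether the rise was particular to the members was not tested. Some members were also called without APAP library 3 or 4, where more of all genes had an unadjusted p under 0.05 as well. With library totals as the scale the medians were 0.55 for G1/S and 0.42 for G2/M, while the median of all genes was 0.34.

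SLIT2 without APAP went with changes in both lists in both directions. In SLIT2 against control 22 of 44 members were called, 50% of them beside 54.9% of all genes tested, a share near that of genes at large. Higher were 12 members, beside 27.3% of all genes tested, and lower 10, beside 27.6%. The G1/S list split into 7 higher and 8 lower with a median of -0.41, and the G2/M list into 5 higher and 2 lower with a median of 0.73, against 0.00 over all genes. In these libraries the mitochondrially encoded genes took 60.2% and 69% of the counts, 5 of 6 hepatocyte markers were lower than in control, and T, B and NK cell markers summed to 12.8 and 11.2 CPM, against 2.98 and 3.09 CPM in control libraries. Of those 9 lymphocyte markers 4 were called higher and 0 lower. The part of these in the member genes was not tested.

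Within the replication machinery Pcna and 3 of the 6 helicase subunits, Mcm2, Mcm3 and Mcm4, were called lower in SLIT2 livers. Pcna had 2.82 and 3.31 CPM in SLIT2 libraries, against 16.2 and 17.5 CPM in control libraries, and fell by 2.46 ± 0.30 on the log2 scale (SE; adjusted p = 0.000405 by edgeR). Mcm3 had 0.206 and 0.398 CPM in SLIT2, against 1.20 and 1.05 CPM in control (-1.92 ± 0.41). Mcm4 had 0.177 and 0.779 CPM in SLIT2, against 1.72 and 1.52 CPM in control (-1.80 ± 0.56), and Mcm2 had 0.457 and 0.525 CPM in SLIT2, against 1.45 and 1.31 CPM in control (-1.50 ± 0.43). On the CPM scale the groups did not overlap for any of these 4 genes. Scaled to the counts outside the mitochondrially encoded genes, Mcm2 and Mcm4 overlapped between the groups, and Pcna and Mcm3 stayed below control. Those counts were 25.1 and 18.9 M in SLIT2 and 80.2 and 83.2 M in control. Mcm2 had 31 and 29 counts in SLIT2 and 122 and 125 in control. Without SLIT2 library 1 the value of Mcm4 was -1.08 and without SLIT2 library 2 it was -3.15. The other 3 subunits were not called. Scaled to the counts outside the mitochondrially encoded genes, Mcm6 and Mcm7 lay above control, the reverse of their order in CPM. Mcm6 had 0.590 and 0.616 CPM in SLIT2, against 1.20 and 1.22 CPM in control (adjusted p = 0.115 by edgeR), Mcm7 had 7.31 and 6.92 CPM in SLIT2, against 9.77 and 9.12 CPM in control (adjusted p = 0.164 by edgeR), and Mcm5 had 1.31 and 1.05 CPM in SLIT2, against 0.632 and 0.557 CPM in control. Summed over the 6 subunits the level was 10.1 and 10.3 CPM in SLIT2 and 16.0 and 14.8 CPM in control, but 27.1 and 30.1 in SLIT2 and 16.7 and 16.9 in control per 1000000 counts outside the mitochondrially encoded genes, so the direction of the sum depends on the scale. Fen1 had 0.310 and 0.109 CPM in SLIT2, against 1.81 and 1.59 CPM in control (-2.97 ± 0.59), and Rrm1 had 0.899 and 1.34 CPM in SLIT2, against 6.21 and 5.42 CPM in control (-2.38 ± 0.42). Cdt1 had 0.546 and 0.652 CPM in SLIT2, against 1.84 and 1.60 CPM in control (-1.52 ± 0.56; adjusted p = 0.0483 by edgeR). Its counts were 37 and 36 in SLIT2 and 154 and 152 in control. Scaled to the counts outside the mitochondrially encoded genes, Cdt1 overlapped between the groups. Gins1 had 1.67 and 1.36 CPM in SLIT2, against 3.28 and 3.68 CPM in control (-1.20 ± 0.29).

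Other genes of the same list were high in SLIT2 livers. Uhrf1 had 8.29 and 14.7 CPM in SLIT2 libraries, against 0.513 and 0.452 CPM in control libraries, a rise of 4.57 ± 0.70 on the log2 scale (SE; adjusted p = 0.00103 by edgeR). Tyms had 49.1 and 50.01 CPM in SLIT2, against 13.9 and 13.7 CPM in control (1.84 ± 0.19; adjusted p = 0.000202 by edgeR). Ccne1 had 2.11 and 2.57 CPM in SLIT2, against 0.465 and 0.662 CPM in control (2.04 ± 0.38), and Ccne2 had 6.10 and 4.15 CPM in SLIT2, against 1.84 and 2.06 CPM in control (1.40 ± 0.34). Both E cyclins were thus higher in SLIT2 livers. Pole had 4.70 and 2.77 CPM in SLIT2, against 0.632 and 1.20 CPM in control (2.03 ± 0.44), and Chek1 had 2.42 and 0.833 CPM in SLIT2, against 0.560 and 0.463 CPM in control (1.68 ± 0.56). The value of Chek1 was 0.68 without SLIT2 library 1. Gins2 had 16.3 and 12.7 CPM in SLIT2, against 5.63 and 7.97 CPM in control (1.09 ± 0.33), the reverse of Gins1 on the CPM scale. Scaled to the counts outside the mitochondrially encoded genes, Gins1 overlapped between the groups. Cdc45 had 0.590 and 0.272 CPM in SLIT2, against 0.370 and 0.347 CPM in control, with overlap.

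Among the mitosis genes Birc5 had 31.3 and 33.0 CPM in SLIT2 libraries, against 3.56 and 3.56 CPM in control libraries, and rose by 3.17 ± 0.25 on the log2 scale (SE; adjusted p = 0.000103 by edgeR). Top2a had 16.4 and 14.7 CPM in SLIT2, against 3.05 and 3.92 CPM in control (2.16 ± 0.35; adjusted p = 0.00133 by edgeR). These 2 genes made up most of the summed G2/M level in SLIT2 livers. Bub1b, a kinase-like protein of the spindle checkpoint, had 0.531 and 0.489 CPM in SLIT2, against 0.119 and 0.179 CPM in control. Aurkb had 0.118 and 0.398 CPM in SLIT2, against 0.0477 and 0.0631 CPM in control (2.13 ± 0.77, or 1.09 without SLIT2 library 2), and Ccnb2, a cyclin partner of Cdk1, had 1.24 and 1.07 CPM in SLIT2, against 0.417 and 0.673 CPM in control (1.08 ± 0.40; adjusted p = 0.0484 by edgeR). DESeq2 called 19 of the 22 members, beside 49.5% of all genes, and the 3 it did not call were Bub1b, Aurkb and Ccnb2. In the other direction Cdk1 had 0.280 and 0.254 CPM in SLIT2, against 0.942 and 0.768 CPM in control (-1.67 ± 0.44; adjusted p = 0.0127 by edgeR), and Aurka, the kinase of the spindle poles, had 0.693 and 0.326 CPM in SLIT2, against 2.68 and 2.45 CPM in control (-2.31 ± 0.51; adjusted p = 0.00577 by edgeR). Mki67 had 0.575 and 0.670 CPM in SLIT2, against 0.358 and 0.421 CPM in control, and was not called.

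Fewer members were called in SLIT2 against control without any 1 of the SLIT2+APAP, SLIT2 or control libraries, and more without either APAP library. The number of all genes with an unadjusted p under 0.05 by edgeR moved the same way. The calls of Bub1b, Ccnb2, Cdt1, Chek1, Mcm2 and Mcm4 were lost without SLIT2 library 1, without control library 1 and without control library 2. Birc5, Uhrf1, Tyms, Pcna, Top2a, Rrm1, Ccne1, Mcm3 and Fen1 were called in each of the 19 alternative fits. The direction of all 22 was the same in each fit that held them.

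The effect of SLIT2 with APAP was then set against its effect without APAP in the same model (the interaction). Of 44 members 10 were called, 22.7% beside 28.8% of all genes tested. For 9 of the 10 the interaction was negative, beside 13.3% of all genes called so, and for Gins1 it was positive, beside 15.5%, at 1.29 ± 0.40 (SE; adjusted p = 0.0436 by edgeR). Ccne1 had the smallest p, at -3.67 ± 0.52 (adjusted p = 0.0046 by edgeR), and it fell in SLIT2+APAP against APAP and rose in SLIT2 against control. Mcm5 had -3.64 ± 0.71 (adjusted p = 0.0106 by edgeR). Mcm3 had an interaction value of 0.00, with log2 fold changes of -1.92 both in SLIT2+APAP against APAP and in SLIT2 against control. The MCM subunits so differed among themselves, with interaction values between -3.64 and 0.70 and a call for Mcm5 alone.

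The count of interaction calls depended on single libraries. It was lower without any 1 of the SLIT2+APAP, SLIT2 or control libraries, and higher without either APAP library. The number of all genes with an unadjusted p under 0.05 by edgeR moved the same way in each of these fits. Whether the changes in the count were particular to the members was not tested. Ccne1 was called in each of these fits.

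The other genes that copy DNA, the brakes of the cycle and the growth factors of the regenerating liver were read from lists of genes outside the set. Of 43 other replication genes tested, 9 (20.9%) were called in SLIT2+APAP against APAP, beside 13.9% of all genes, 4 higher (Brca2, Rfc5, Pola2 and Orc4) and 5 lower (Rpa1, Rpa2, Dtl, Chaf1a and Chaf1b), with a median of 0.03. In APAP against control 0 of the 43 were called by edgeR, beside 0.788% of all genes, with 17 at an unadjusted p under 0.05, beside 24.6% of all genes, and a median of 0.17. The 26 members had medians of 1.23 in APAP against control and -0.96 in SLIT2+APAP against APAP. Rpa2, a subunit of the single-strand binding complex, had 2.52 and 2.62 CPM in SLIT2+APAP, against 6.11 and 8.31 CPM in APAP (-1.49 ± 0.33, SE; adjusted p = 0.0254 by edgeR). Brca2, a gene of DNA repair, had 6.92 and 4.51 CPM in SLIT2+APAP, against 1.27 and 2.29 CPM in APAP (1.67 ± 0.37, SE; adjusted p = 0.0274 by edgeR). Of 34 other mitosis genes tested, 1 (2.94%) was called in SLIT2+APAP against APAP, beside 13.9% of all genes. It was the kinesin gene Kif18a, which was higher, with 2.44 and 3.41 CPM in SLIT2+APAP, against 1.11 and 0.622 CPM in APAP.

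Of 18 cyclin, CDK and E2F partner genes that time G1 and S, 4 (22.2%) were called in SLIT2+APAP against APAP, beside 13.9% of all genes. Cdk6, a partner kinase of the D cyclins, had 9.80 and 11.7 CPM in SLIT2+APAP, against 2.94 and 3.14 CPM in APAP, and rose by 1.82 ± 0.26 on the log2 scale (SE; adjusted p = 0.00869 by edgeR). Cdk4, the other such kinase, had 189.9 and 196.3 CPM in SLIT2+APAP, against 69.4 and 84.8 CPM in APAP (1.32 ± 0.29). Lower were the E2F partners Tfdp1, with 2.25 and 2.098 CPM in SLIT2+APAP, against 4.62 and 8.99 CPM in APAP, and Tfdp2, with 3.39 and 1.36 CPM in SLIT2+APAP, against 18.2 and 8.10 CPM in APAP. The cyclin D kinases and the cyclin D1 gene thus had log2 fold changes of opposite sign, with Ccnd1 at -2.68 and not called. In SLIT2+APAP against control Cdk6 was called at 1.46 ± 0.26 (adjusted p = 0.0382 by edgeR). So was the helicase gene Hells, from the list of other replication genes, at 1.52 ± 0.28 (adjusted p = 0.0413 by edgeR).

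Some brakes of the cycle also differed between the groups. Of 20 tested, 2 (10%) were called in APAP against control, both higher (Btg2 and Wee1), beside 0.788% of all genes called, and the median over the list was 0.59. Of the same 20, 6 (30%) were called in SLIT2+APAP against APAP, all lower (Btg2, Wee1, Gadd45a, Gadd45b, Gadd45g and Fzr1), beside 7.64% of all genes called lower, and the median was -0.41. Btg2, an antiproliferative gene of early growth arrest, had 4.07 and 6.66 CPM in SLIT2+APAP libraries, 116.1 and 105.4 CPM in APAP libraries, 3.95 and 5.36 CPM in SLIT2 libraries and 4.88 and 3.95 CPM in control libraries. It rose by 4.65 ± 0.33 in APAP against control and fell by 4.37 ± 0.32 in SLIT2+APAP against APAP on the log2 scale (SE; adjusted p = 0.0065 and 0.00403 by edgeR). Wee1, the kinase that holds Cdk1 inactive, had 0.263 and 0.307 CPM in SLIT2+APAP, 1.45 and 0.835 CPM in APAP, 0.973 and 0.978 CPM in SLIT2 and 0.107 and 0.189 CPM in control. Cdkn1a, the p21 inhibitor of cyclin-dependent kinases, had 2.25 and 4.25 CPM in SLIT2+APAP, 411.7 CPM in APAP library 3 and 8.53 CPM in APAP library 4, 2.21 and 1.30 CPM in SLIT2 and 44.99 and 6.45 CPM in control. Its libraries differed within APAP and within control, and it was called in none of the 4 comparisons of groups. Gadd45a, a stress gene that binds Pcna, had 3.62 and 4.19 CPM in SLIT2+APAP, 193.8 and 11.3 CPM in APAP and 1.61 and 2.05 CPM in control. Cdkn2d was not used here.

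**Figure D5:**
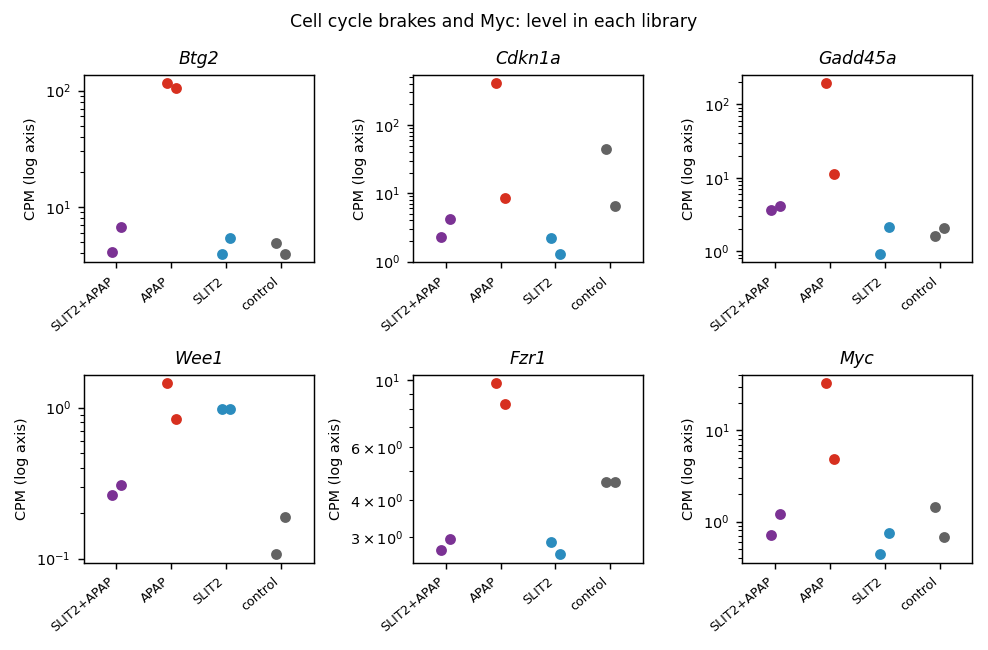
Level in CPM (vertical axis, logarithmic) of 5 cell cycle brakes and Myc in each library, 1 point per library. Btg2 stands at 116.1 and 105.4 CPM in the APAP libraries and at 3.95 to 6.66 CPM elsewhere, while Cdkn1a, Gadd45a and Myc lie far apart between the 2 APAP libraries.

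Of 15 ligands, receptors and priming genes of liver regeneration tested, 0 were called in APAP against control by edgeR, beside 0.788% of all genes, with 7 at an unadjusted p under 0.05, beside 24.6% of all genes. Of the 15, 2 (13.3%) were called in SLIT2+APAP against APAP, both lower, a share near the 13.9% of all genes. Myc, an early growth response gene, had 0.713 and 1.21 CPM in SLIT2+APAP, against 32.8 and 4.84 CPM in APAP, and fell by 4.28 ± 0.88 on the log2 scale (SE; adjusted p = 0.0214 by edgeR). Areg, a ligand of the EGF receptor, had 0.0125 and 0.113 CPM in SLIT2+APAP, against 0.898 and 0.495 CPM in APAP (adjusted p = 0.044 by edgeR), so SLIT2+APAP library 1 was near 0. The floor that 3 counts over the 2 SLIT2+APAP libraries give was 0.0169 CPM, a limit for the group and not for 1 library. Hgf, the main mitogen of hepatocytes, had 0.526 and 0.696 CPM in SLIT2+APAP, against 1.06 and 1.22 CPM in APAP (-0.90 ± 0.38, SE; adjusted p = 0.146 by edgeR). The median of the 15 was -0.90 in SLIT2+APAP against APAP and 0.82 in APAP against control, comparisons that share the APAP libraries.

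In all, 24 of the 45 members were called in at least 1 of the 5 comparisons, 17 G1/S and 7 G2/M genes, and 21 in none. The 21 were Mcm6, Mcm7, Ccnd1, Cdc6, Rrm2, E2f1, E2f2, Lig1 and Prim1 of the G1/S list, and Ccna2, Ccnb1, Ccnf, Mki67, Bub1, Plk1, Kif11, Kif20a, Tpx2, Cenpa, Cdc20 and Foxm1 of the G2/M list. Foxm1, the factor that drives the mitosis genes, stood at 0.188 and 0.184 CPM in SLIT2+APAP, 0.0873 and 0.204 CPM in APAP, 0.383 and 0.163 CPM in SLIT2 and 0.131 and 0.294 CPM in control. Plk1, a mitotic kinase, had at most 0.474 CPM, in APAP library 3. At such levels a difference between groups was not detectable at this depth unless it was large.

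The identity of some reads is uncertain. A gene in the table overlaps 12 of the 45 members, on the opposite strand for 11 of them, among them Cdc45, Ccnd1, Ccne2, Fen1, Gins2, Lig1, Mcm7, Ccna2, Kif20a and Cdc20. The processed pseudogene Ccnb2-ps had 15 to 106 counts per library, against 29 to 84 counts for Ccnb2 itself, so the values of Ccnb2 are uncertain. Pcna-ps2 had 1 to 35 counts, against 183 to 3076 for Pcna, and Ccnb1-ps had 0 to 9 counts, against 8 to 24 for Ccnb1.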

How the data were processed

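Liver RNA was measured by RNA-seq in 8 libraries. The libraries were made with the MGIEasy RNA Directional Library Prep Kit, per the labels' protocols. STAR 2.5.4, Cufflinks, Cuffdiff 2.2.1 and the mm10 build are named per the submitters' processing notes, with no role or order, and which counter made the table, with what strand setting, is not given in the sources used here. The table deposited by the authors holds raw counts of reads per gene.

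Symbols were taken from GENCODE on GRCm38 and matched 22341 of 23006 identifiers. Genes with low counts were removed with edgeR's filterByExpr, and 16876 were tested with edgeR 4.0.16 (TMM scaling, quasi-likelihood test, 1 mean per group, all 8 libraries, R 4.3.3), with Benjamini-Hochberg adjustment over these genes and a threshold of 0.05. CPM was computed from the counts on TMM-scaled library sizes. DESeq2 1.42.0, other scalings, filters, sample sets and each library left out were alternatives. On simulated counts for 16876 genes, the test recovered 65% of 4-fold and 5% of 2-fold changes in SLIT2+APAP against APAP, and 61% and 2% in APAP against control. Changed genes were drawn from those with a mean over 1 CPM, and all genes and groups had the same spread (a dispersion of 0.112). The rates so do not cover genes of lower level or the wider spread of the APAP libraries. Floors cover counting error only.

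Named members were those called in any comparison, the 4 with the smallest p per list in APAP against control and SLIT2+APAP against APAP, and Ccnd1, Ccne1, Pcna, Mcm2, Cdk1, Mki67 and Top2a. Genes of the other lists were named where called in a comparison, in part only as counts, and Cdkn1a, Myc and Hgf always. Other members named with values were chosen after their values were seen. The members and lists were chosen with earlier results of these data known. Start-site windows are RefSeq's on GRCm38.p6. Figures were drawn with matplotlib 3.10.9.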

Additional observations from a re-analysis of the deposited data

Results flagged for a closer look

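For 10 members the effect of SLIT2 with APAP (SLIT2+APAP against APAP) differed from its effect without APAP (SLIT2 against control) by the interaction term of edgeR's quasi-likelihood model with Benjamini-Hochberg adjustment, beside 28.8% of all genes tested. The difference, on the log2 scale, was -4.77 for Uhrf1, -3.67 for Ccne1, -3.64 for Mcm5, -2.80 for Chek1, -2.56 for Pole, -2.27 for Cdc45, -1.77 for Top2a, -1.27 for Birc5 and -1.25 for Tyms. For Gins1 it was 1.29. Without SLIT2 library 1 the value of Chek1 was -1.79. Ccne1 and Birc5 were called in both comparisons, Ccne1 with opposite signs (-1.62 with APAP and 2.04 without) and Birc5 with the same sign (1.90 with APAP and 3.17 without). Mitochondrially encoded genes took 60.2% and 69% of counts in SLIT2 libraries, against 16% and 17.3% in control libraries, and the part of this in the differences was not tested.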

How the results depend on the processing

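In APAP against control, members called numbered 10 with DESeq2, 2 with library totals or no count filter, and 0 with the legacy edgeR fit, only the 4 libraries compared or without the SLIT2 libraries (leaving out 1 library, 0 to 15). All genes called numbered 1798 with DESeq2, 73 with GC offsets (an alternative chosen after seeing the data, as was the fit of protein-coding genes), 54 with the legacy fit, 236 with library totals, 205 with no filter and 0 with the 4 libraries or without the SLIT2 libraries (0 to 5181). The G1/S median was 0.60 to 1.34 with 1 library left out, and the G2/M median 0.13 with library totals (-0.01 to 0.11).

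In SLIT2+APAP against APAP, the 4 libraries alone gave 0 members (0 to 15) and 1 gene of all (21 to 6133). The G1/S median was -0.98 to -0.62 with 1 library left out, and the G2/M median 0.07 with a filter of 1 CPM and 0.15 with library totals (-0.12 to 0.14).

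In SLIT2+APAP against control, members called numbered 1 with DESeq2 or library totals and 8 with the 4 libraries (0 to 5), and all genes 1433 with DESeq2, 4246 with the 4 libraries and 3 without the SLIT2 libraries (2 to 2558). The G1/S median was 0.55 with library totals (0.21 to 0.30), and the G2/M median 0.28 with 1 CPM and 0.42 with library totals (0.10 to 0.55). With the replicate number as a block, 8 members and 3556 genes were called. Same-numbered libraries did not pair, with correlations of deviations of -0.07 for SLIT2+APAP and control, -0.01 for SLIT2+APAP and SLIT2 and 0.07 for SLIT2 and control. In SLIT2 against control the block gave 23 members.

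In SLIT2 against control, leaving out 1 library gave 11 to 31 members, 6272 to 11672 genes and G1/S medians of -0.57 to -0.37. The G2/M median was 0.05 with 1 CPM and 0.85 with library totals (0.56 to 1.06). For the interaction these ranges were 1 to 21 members, 1002 to 8303 genes and -0.56 to -0.02, and the G2/M median was -0.04 with 1 CPM and -0.18 without mitochondrially encoded genes (-0.48 to -0.09). The causes were not tested. With 2 libraries a group, 2-fold differences were seldom found in simulated counts of genes over 1 CPM. Many mitosis genes had few counts, and the simulation did not cover changes in genes under 1 CPM.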
